A study of Mus musculus with 4 samples.

Results

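The mitochondrial ribosomal protein genes were taken as every gene on the array whose name begins with Mrpl, for the large subunit of the mitochondrial ribosome, or Mrps, for its small subunit, followed by a number. Among 31087 gene names on the array there were 77 such genes, 48 of the large and 29 of the small subunit, covered by 103 probes placed on 18 chromosomes, with 10 probes not placed. All 77 names are in the RefSeq gene table of the mouse. 76 of them had at least 1 probe well above background on all 4 arrays and were compared below. The exception was Mrpl21, whose single probe was well above background in [Glc 5 mM/Pyr (+)] alone.

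The RNA came from IMS32, a line of immortalized Schwann cells of the mouse, the glia that ensheath peripheral axons. The cells had been kept for 1 h in a serum-containing medium with 5 mM glucose and 1 mM pyruvate, written [Glc 5 mM/Pyr (+)], with 5 mM glucose and no pyruvate, [Glc 5 mM/Pyr (−)], with 15 mM glucose and 1 mM pyruvate, [Glc 15 mM/Pyr (+)], or with 15 mM glucose and no pyruvate, [Glc 15 mM/Pyr (−)]. All 4 conditions share the line, the serum and the medium, and the study asked how removal of pyruvate acts on these cells at high glucose. Each condition is 1 array, so no difference between conditions could be checked against the spread between cultures, and no test or p-value is given.

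The mitochondrial ribosome sits in the matrix and translates the few messenger RNAs made from mitochondrial DNA, all of which encode core subunits of the respiratory chain and ATP synthase. Its RNA comes from mitochondrial DNA, whereas its proteins are encoded in the nucleus, made in the cytosol and imported. The ribosome therefore depends on nuclear genes scattered over the genome, and several of its proteins have no counterpart in bacteria. In Schwann cells, as in other glia, pyruvate can leave the cytosol as lactate or enter mitochondria to feed the respiratory chain that this ribosome helps to build.

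Before the values, the DNA in front of these genes shows what many of them share. RefSeq promoter windows on GRCm38.p6, covering 250 bases before and 50 bases after a start, were at hand for 68 of the 77 genes, 74 windows in all. The letters CGGAAG, the core bound by ETS family factors such as GABP, were found on either strand in 52.7% of the 74 windows, against 21.1% of 21263 windows of protein-coding genes and 16.9% of all windows. AAGATGG, letters of the YY1 site, was in 17.6% against 6.24% of protein-coding and 6.34% of all windows, and GCATGCG, letters of the NRF1 site, in 10.8% against 4.44% and 3.58%. CCAAT, bound by NF-Y, was about as frequent as elsewhere, 40.5% against 38.2% of protein-coding and 37.4% of all windows, and TATAAA was in 6.76% against 12.6% and 13.6%. At least 1 of the ETS, YY1 and NRF1 letters was present for 46 of the 68 genes. The windows held a median of 21.5 CG pairs, against 13 in protein-coding genes, and a median GC content of 58.5% against 56.3%. Windows of one gene with several starts, or of a pair of genes that start close together, overlap. A letter match is a description and no site of binding, and no overlap of ETS with YY1 letters was found on 1 strand, while GCATGCG overlaps its own reverse complement, so that a single place can match on both strands.

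**Figure D1:**
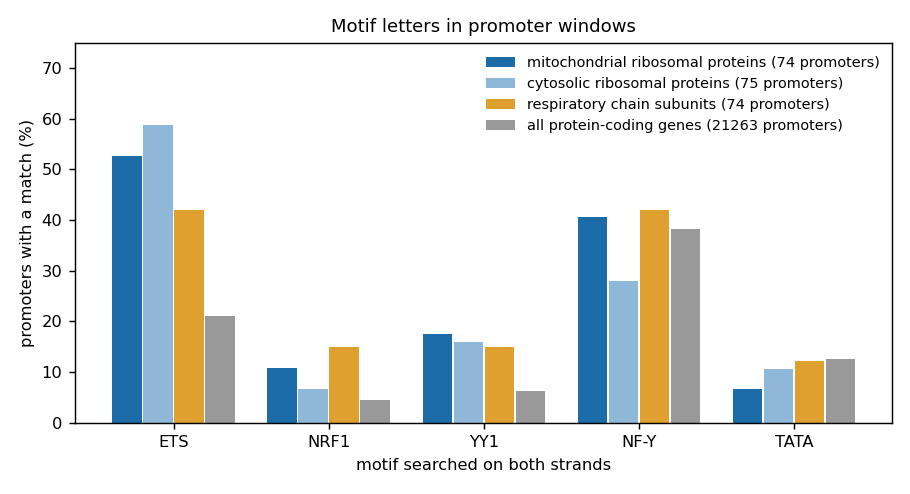
Share of promoter windows, in percent, that hold the letters of 5 motifs on either strand, for mitochondrial ribosomal protein genes (74 windows), cytosolic ribosomal protein genes (75), respiratory chain subunit genes (74) and all protein-coding genes (21263). ETS letters stand at 52.7%, 58.7% and 41.9% in the 3 gene groups and at 21.1% in all protein-coding genes.

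The stretches just before the start of 6 genes are printed 5′ to 3′ on the gene's own strand, because these genes either stood at the edges of the comparisons below or lie head to head with another mitochondrial gene. Capitals mark the ETS letters (CGGAAG or its reverse complement CTTCCG) and, in Mrpl32, the NRF1 letters (GCATGCG or CGCATGC).
Mrpl32, chr13:14613038-14613187, minus strand: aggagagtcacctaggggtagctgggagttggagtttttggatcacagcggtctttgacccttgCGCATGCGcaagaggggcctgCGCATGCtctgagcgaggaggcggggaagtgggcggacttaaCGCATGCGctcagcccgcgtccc
Mrpl34, chr8:71464776-71464925, plus strand: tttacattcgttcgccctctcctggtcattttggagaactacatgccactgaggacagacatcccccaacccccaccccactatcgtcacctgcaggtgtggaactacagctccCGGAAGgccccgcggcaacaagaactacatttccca
Mrps16, chr14:20393635-20393784, minus strand: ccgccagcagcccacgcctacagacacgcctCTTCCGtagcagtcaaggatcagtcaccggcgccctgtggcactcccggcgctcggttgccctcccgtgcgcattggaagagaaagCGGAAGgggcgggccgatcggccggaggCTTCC
Mrps18b, chr17:35916441-35916590, minus strand: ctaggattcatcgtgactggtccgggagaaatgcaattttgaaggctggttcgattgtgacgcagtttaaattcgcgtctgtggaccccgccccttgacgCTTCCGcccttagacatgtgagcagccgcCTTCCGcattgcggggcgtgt
Mrpl47, chr3:32736756-32736905, minus strand: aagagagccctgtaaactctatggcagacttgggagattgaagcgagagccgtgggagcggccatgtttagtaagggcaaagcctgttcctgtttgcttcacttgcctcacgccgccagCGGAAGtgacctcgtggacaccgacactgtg
Mrpl43, chr19:45006443-45006555, minus strand: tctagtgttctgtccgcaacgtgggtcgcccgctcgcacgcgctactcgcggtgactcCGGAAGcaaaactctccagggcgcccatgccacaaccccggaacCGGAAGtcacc
Mrpl32, a protein of the large subunit that is cut to its mature form inside the matrix, had 5 matches to the NRF1 letters at 3 places and no ETS letters. Mrps18b and Mrpl43 each had ETS letters at 2 places in the printed stretch, Mrpl34 and Mrpl47 at 1 place. Outside its printed stretch Mrps18b also had 3 matches to the NRF1 letters. In Mrps16 the last capitals are the beginning of a match that runs across the start.

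A start on the opposite strand within 500 bases upstream, a head-to-head arrangement, was found for 23 of the 68 genes with a window (33.8%) and for 11.7% of 17492 protein-coding genes. Some of the neighbours act in mitochondria themselves. The starts of Mrpl43 and Twnk, the helicase of mitochondrial DNA, lie 114 bases apart, and those of Mrpl47 and Ndufb5, a subunit of complex I, lie 306 bases apart. Mrps12, a protein of the decoding centre, and Sars2, the mitochondrial seryl-tRNA synthetase, start 145 bases apart. Mrpl46 and Mrps11, one protein for each subunit, start 40 bases from each other. For that last pair, levels were read relative to the 75th percentile of each array. Mrpl46 stood at 1.03, 1.02, 1.09 and 1.26 in the order given above, and Mrps11 at 0.65, 0.75, 0.91 and 0.97. Both were highest in [Glc 15 mM/Pyr (−)], and whether the pair runs in step was not tested.

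All levels here are log2 intensities minus the 75th percentile of the same array, so a level of 1 means 2.0-fold above that percentile, and a difference is the level in one condition minus that in another. Levels of different genes are not set against each other, since probes differ in brightness. The 75th percentile itself lay between 1598 and 1789 intensity units, and between 28467 and 30340 of 39418 probes were well above background, with none saturated. 67 of the 76 genes were among the 5522 brightest of the 16566 named genes measured and 0 were among the 5522 dimmest, which is why the 5522 brightest genes are given as a second background. Within an array, 399 probes printed 10 times had a median SD over their spots between 0.087 and 0.094. From these SDs a difference between single spots on 2 arrays has a spread of 0.13 before any difference between cultures.

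The 76 genes stood highest as a group in [Glc 15 mM/Pyr (−)]. That array gave the highest of the 4 levels for 67 of 76 genes, 44 of 47 in the large and 23 of 29 in the small subunit, against 39.3% of all named genes and 51.6% of the brightest genes. It gave the lowest level for 0 of 76, against 29.5% of all named genes and 23.3% of the brightest genes. [Glc 5 mM/Pyr (−)] gave the lowest level for 41 genes, against 22.8% of all named genes and 28.3% of the brightest genes. [Glc 5 mM/Pyr (+)] did so for 27 genes (35.5%), against 24.1% and 35.5%, and [Glc 15 mM/Pyr (+)] for 8 (10.5%), against 23.6% and 12.8%, so that both counts lie near the share of the brightest genes. The shifts were small, and the highest and the lowest array differed by a median of 0.21 per gene, from 0.07 in Mrps25 to 0.39 in Mrpl32, beside 0.23 in all named genes and 0.18 in the brightest genes. This order rests on scaling each array to its own genes: scaled to the 8 spike-in probes instead, 0 of 76 genes were highest in [Glc 15 mM/Pyr (−)], while the median of all named genes in the comparison of 15 with 5 mM glucose moved to −0.42 with and −0.21 without pyruvate.

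**Figure D2:**
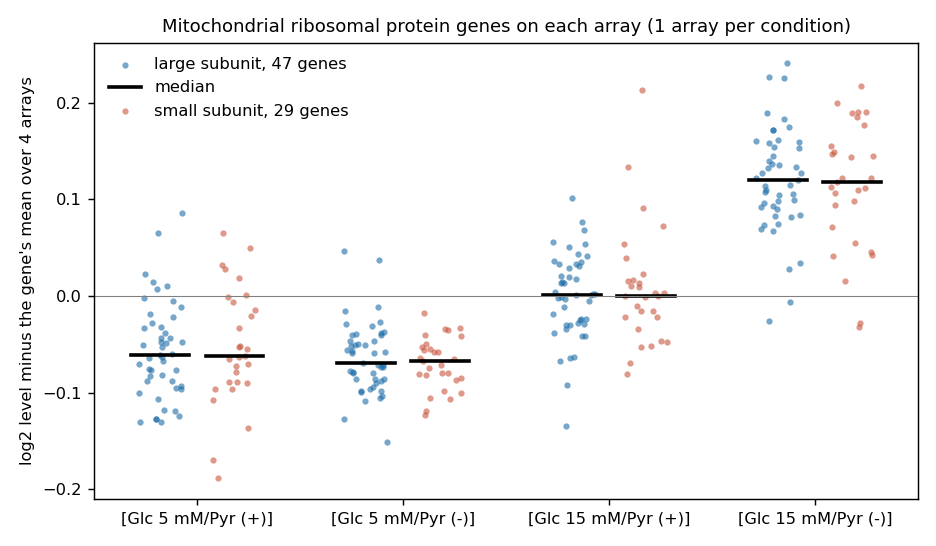
Log2 level of each gene on each array minus the gene's mean over the 4 arrays, for 47 large subunit genes (blue) and 29 small subunit genes (red), with 1 array per condition and the median as a bar. From left to right the medians lie at −0.061, −0.069, 0.0016 and 0.12 for the large and at −0.062, −0.067, 0.00044 and 0.12 for the small subunit; with spike-in scaling no gene is highest on that last array.

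At 15 mM glucose the genes were mostly a little higher without pyruvate than with it. The difference, [Glc 15 mM/Pyr (−)] minus [Glc 15 mM/Pyr (+)], was above 0 for 71 of 76 genes (93.4%), against 57.5% of all named genes and 59.8% of the brightest genes. Its median was 0.12 for the large subunit (SD over genes 0.078, n = 47), a 1.09-fold level, and 0.14 for the small subunit (SD 0.11, n = 29), beside 0.035 for all named genes and 0.034 for the brightest genes. With spike-in scaling, which moved the median of all named genes to −0.022, these medians were 0.063 and 0.081 and 60 of 76 genes were above 0. Large changes were absent: 3 of 76 genes were higher by at least 1.2-fold, where 11.4% of all named genes and 4.04% of the brightest genes were, and 0 were lower by as much, where 8.89% and 3.55% were. No gene of the 76 reached 1.5-fold, a size that 2.65% of all named genes reached upwards and 2.11% downwards.

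Of the 3 genes past 1.2-fold, Mrpl32 stood at 1.22 with and 1.13 without pyruvate at 5 mM glucose, and at 1.25 with and 1.52 without pyruvate at 15 mM glucose. On this scaling the last array is thus apart from the other 3, which lie close together, and the difference at 15 mM glucose was 0.27. Mrps31, a small subunit protein, had the same shape, with 1.56, 1.57, 1.56 and 1.83 and a difference of 0.27. The third, Mrpl41, had the highest difference of all, 0.36, from levels of 0.38, 0.39, 0.29 and 0.65, but its 2 probes were far apart. The bright probe, with a mean of 26012 intensity units, gave 0.12, and the dim one, with a mean of 198, gave 0.60.

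Mrpl34 was close behind and is the most precisely measured of these genes, because its probe was printed 10 times. Its level was 2.07, 2.05, 2.14 and 2.39 with spot SDs between 0.061 and 0.076, and the difference at 15 mM glucose was 0.25 ± 0.032 (SE over spots within the arrays). On this scaling the first 3 arrays again lie together and [Glc 15 mM/Pyr (−)] lies above them, an order that spike-in scaling does not keep. Mrps18c, one of 3 mammalian relatives of the bacterial protein S18, was at 3.41, 3.46, 3.54 and 3.76, a difference of 0.22. Mrpl50, also printed 10 times, was at 1.26, 1.29, 1.32 and 1.39 by that probe, with a difference of 0.070 ± 0.016. Its second, dimmer probe gave 0.18, and the mean over both is 0.12.

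The 5 genes below 0 in this comparison were Mrps18b, Mrpl10, Mrps26, Mrps25 and Mrps35. Mrps18b, another S18 relative, stood at 2.39, 2.33, 2.66 and 2.42, highest in [Glc 15 mM/Pyr (+)], so that its difference was −0.24. Both of its probes pointed the same way, with −0.09 from the bright one and −0.39 from the dim one. Mrpl10, which anchors the stalk of the large subunit, was at 1.18, 1.11, 1.25 and 1.15 with a difference of −0.10, and its probes gave −0.07 and −0.13. Mrps26 was at 3.60, 3.61, 3.83 and 3.73, a difference of −0.09, which its probes gave as −0.05 and −0.13. Mrps25 is undecided, since its bright probe gave 0.12 and its dim probe, with a mean of 516 units, gave −0.26. Mrps35, printed 10 times, was at 1.09, 1.06, 1.21 and 1.19, and its difference of −0.018 ± 0.021 was within the error of its spots.

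At 5 mM glucose the removal of pyruvate went with almost no shift of the group. The difference, [Glc 5 mM/Pyr (−)] minus [Glc 5 mM/Pyr (+)], had a median of −0.011 for the large subunit (SD 0.063, n = 47) and −0.021 for the small subunit (SD 0.064, n = 29), beside −0.014 for all named genes. It was above 0 for 30 of 76 genes (39.5%), against 45.1% of all named genes and 50.4% of the brightest genes. 0 of 76 genes were higher and 0 lower by 1.2-fold, where 4.17% and 7.21% of all named genes and 0.797% and 0.634% of the brightest genes were. With spike-in scaling both medians moved with all genes, to −0.22 and −0.23 beside −0.23 for all named genes.

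The highest value at 5 mM glucose was that of Mrps16, a small subunit protein whose loss causes a human mitochondrial disease. Its level was 4.52, 4.65, 4.76 and 4.90, lowest in [Glc 5 mM/Pyr (+)] and higher on each of the others, and its difference of 0.13 was close to that at 15 mM glucose, 0.14. Mrpl19 followed with 0.12, Mrpl45 with 0.11 and Mrps11 with 0.10. The lowest values were those of Mrpl20 with −0.16, Mrpl39, Mrps2 and Mrps10 with −0.13 each. For Mrpl20 and Mrpl39 that value came from a dim second probe, with means of 23 and 268 intensity units and differences of −0.32 and −0.29. Their bright probes gave −0.00073 and 0.020. Mrps10 has a single probe, at 2.28, 2.15, 2.25 and 2.42, lowest in [Glc 5 mM/Pyr (−)].

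The 2 pyruvate differences share no array, and for 65 of 76 genes (85.5%) the one at 15 mM glucose was the larger, as it was for 58.9% of all named genes and 57.8% of the brightest genes. 42 genes were below 0 at 5 mM and above 0 at 15 mM glucose, a combination met in 30.7% of all named genes. 29 genes were above 0 in both, 4 below 0 in both, and 1, Mrps26, was above 0 at 5 mM and below at 15 mM. Of the 16566 named genes, 4447, 4016 and 3022 fell into these classes. A gene's difference at one glucose level said little about the other, with a Pearson correlation of 0.037 across the 76 genes, which are not independent replicates. The glucose comparisons that follow use the same 4 arrays again, so that the 4 comparisons are not independent of each other.

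**Figure D3:**
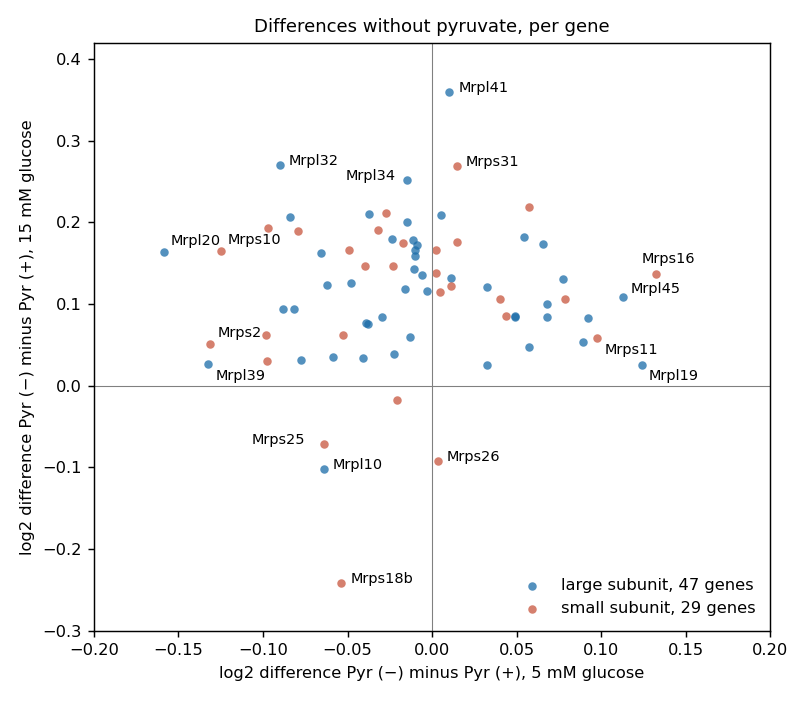
Log2 difference without minus with pyruvate at 5 mM glucose (horizontal axis) and at 15 mM glucose (vertical axis) for 47 large subunit genes (blue) and 29 small subunit genes (red), 1 point per gene. 71 of 76 points lie above 0 on the vertical axis, while 30 lie to the right of 0 on the horizontal axis, where spike-in scaling leaves 60 and 0.

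Glucose was compared in the same way. Without pyruvate, [Glc 15 mM/Pyr (−)] minus [Glc 5 mM/Pyr (−)] was above 0 for 75 of 76 genes (98.7%), against 56.9% of all named genes and 68.4% of the brightest genes, and for 19 of 76 with spike-in scaling. The median was 0.18 for the large subunit (SD 0.079) and 0.17 for the small subunit (SD 0.076), a 1.14-fold and a 1.13-fold level, beside 0.034 for all named genes and 0.074 for the brightest genes. With spike-in scaling these medians became −0.062 and −0.071 beside −0.21 for all named genes, so that the genes still stood above the rest although their sign was turned. 11 of 76 genes were higher by 1.2-fold, beside 11.6% of all named genes and 7.3% of the brightest genes. 0 were lower by 1.2-fold, where 11.3% and 3.64% were.

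The highest of the 11 was Mrpl32, with 0.39, then Mrpl34 with 0.34 ± 0.031 (SE over spots), Mrpl57 with 0.32, and Mrps18c and Mrps36 with 0.30 each. Mrps36 was at 1.72, 1.72, 1.85 and 2.02, and its protein is now assigned to the 2-oxoglutarate dehydrogenase complex rather than to the ribosome. Both of its probes were placed on chromosome 17, whereas the gene is on chromosome 13, so that signal from a copy cannot be told apart. The same holds for 1 probe each of Mrpl15, Mrpl22, Mrpl23, Mrpl30, Mrpl48 and Mrps26. The gene below 0 was Mrpl19, with −0.02, and Mrps25 at 0.0036 and Mrpl10 at 0.03 were next.

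With pyruvate present, [Glc 15 mM/Pyr (+)] minus [Glc 5 mM/Pyr (+)] was above 0 for 58 of 76 genes (76.3%), against 45.5% of all named genes but 63.7% of the brightest genes, and for 0 of 76 with spike-in scaling. The medians were 0.060 for the large subunit (SD 0.082) and 0.049 for the small subunit (SD 0.10), beside −0.016 for all named genes and 0.035 for the brightest genes. This shift lay close to that of other bright genes, and with cyclic loess normalization the small subunit median was 0.00326 and the large subunit median 0.019. 1 of 76 genes was higher by 1.2-fold, where 3.42% of all named genes and 1.18% of the brightest genes were, and 0 were lower, where 10.6% and 0.996% were. That gene was Mrps18b with 0.28, followed by Mrps11 with 0.26, Mrps16 with 0.24 and Mrpl55 with 0.23. In the large subunit Mrpl49 came next after Mrpl55, with 0.18, but its 2 probes gave 0.34 and 0.028. The lowest were Mrpl20 with −0.13 and Mrpl39 with −0.12, both from their dim probes, and Mrps17 and Mrps27 with −0.11 each. The bright probes of Mrpl20 and Mrpl39 gave 0.065 and −0.0062. Mrps17 had −0.06 and −0.17 from its 2 probes, both below 0.

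Large and small subunit genes did not part in any of the 4 comparisons by more than 0.018, the difference of their medians at 15 mM glucose. 3 proteins with known places on the ribosome were read next. Mrps12 of the decoding centre was at 3.71, 3.79, 3.81 and 3.92. Mrpl12, the stalk protein that also binds the mitochondrial RNA polymerase, was at 4.31, 4.38, 4.49 and 4.57, and Mrpl11 at the base of the stalk was at 3.99, 4.08, 4.14 and 4.23. All 3 were lowest in [Glc 5 mM/Pyr (+)] and highest in [Glc 15 mM/Pyr (−)]. Their pyruvate differences, from 0.068 to 0.11, were within the spread of 0.13 for single spots. The glucose differences with and without pyruvate were 0.18 and 0.19 for Mrpl12 and 0.15 and 0.14 for Mrpl11, past that spread. For Mrps12 they were 0.099 and 0.13. None of these was tested.

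4 further genes were named for their role, as their human counterparts are mutated in mitochondrial disease. Mrpl3 was at 3.50, 3.46, 3.57 and 3.61, Mrpl44 at 1.17, 1.15, 1.22 and 1.28, Mrps22 at 2.47, 2.39, 2.45 and 2.64, and Mrps34 at 3.55, 3.59, 3.64 and 3.73. Each of these 4 was highest in [Glc 15 mM/Pyr (−)], and Mrps22 had the widest gap there, 0.19 without minus with pyruvate at 15 mM glucose. Mrps18a and Mrps30 carry small subunit names although their proteins sit in the large subunit. They were at 3.01, 3.05, 3.12 and 3.22 and at 2.10, 2.05, 2.13 and 2.19. The 3 S18 relatives had different top arrays, since Mrps18a and Mrps18c were highest in [Glc 15 mM/Pyr (−)] and Mrps18b in [Glc 15 mM/Pyr (+)].

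Probes of one gene gave a further measure of error within the arrays. For the 25 genes with at least 2 measured probes, the median gap between the highest and the lowest probe was 0.055 and 0.076 in the pyruvate differences at 5 and 15 mM glucose, and 0.11 and 0.072 in the glucose differences with and without pyruvate. The widest gap, 0.47, was that of Mrpl41. All probes of a gene were above 0 for 18 of 25 genes in the pyruvate comparison at 15 mM glucose and for 22 of 25 in the glucose comparison without pyruvate, but for 3 of 25 in the pyruvate comparison at 5 mM glucose. The 10 probes with a mean under 1000 intensity units scattered more, with an SD of 0.22 against 0.098 for the 92 brighter probes at 15 mM glucose. The brighter probes had medians of 0.13 in that comparison and of 0.19 for glucose without pyruvate, and 83 and 91 of the 92 were above 0.

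**Figure D4:**
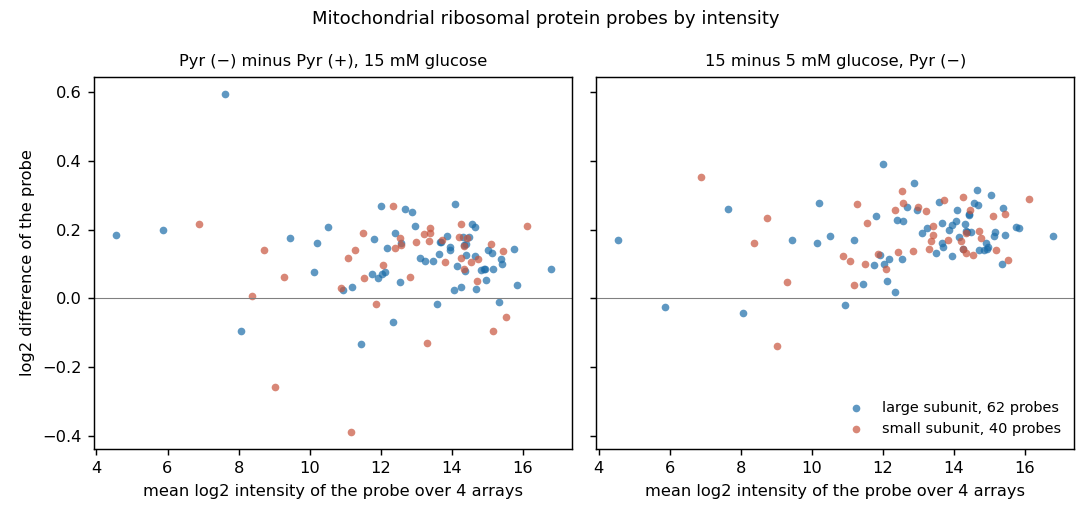
Log2 difference of each of 102 measured probes against its mean log2 intensity over the 4 arrays, for pyruvate at 15 mM glucose (left) and glucose without pyruvate (right), with large subunit probes in blue and small subunit probes in red. The 10 probes under 1000 units, at the left of each panel, hold the value of 0.60 in Mrpl41 and that of −0.26 in Mrps25, and 83 and 91 of the other 92 lie above 0; with spike-in scaling the panel on the right is shifted below 0 for most genes.

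The probe of Mrpl21, with 1 spot per array, read 12.97, 7.97, 7.85 and 6.45 units in the order of conditions given above. Mrpl21 could be given bounds only, and these leave out the error of single spots. It was at least 1.28-fold higher in [Glc 5 mM/Pyr (+)] than in [Glc 5 mM/Pyr (−)] and at least 1.104-fold higher than in [Glc 15 mM/Pyr (+)], the level of the dim arrays being the lowest signal called well above background there or the probe's own signal, whichever was higher.

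Other parts of mitochondrial translation were read beside the ribosomal proteins, in the order pyruvate at 5 mM glucose, pyruvate at 15 mM glucose, glucose with pyruvate and glucose without pyruvate. 6 proteins of the mitochondrial ribosome under other names (Dap3, Ptcd3, Gadd45gip1, Aurkaip1, Chchd1 and Ict1) had medians of 0.025, 0.098, 0.11 and 0.16, and 6 of 6 were above 0 in the second and the fourth. Chchd1 was the highest of them without pyruvate, with a glucose difference of 0.24, and Ptcd3 the lowest, with 0.0098. The 25 genes of ribosome assembly and ribosomal RNA modification had medians of 0.019, 0.11, 0.059 and 0.17. Among these Mrm1, a methyltransferase of the large ribosomal RNA, was the highest at 15 mM glucose, with 0.53, and Dhx30 the lowest, with −0.19.

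The 18 genes of mitochondrial transcription and RNA stability had medians of −0.014, 0.14, 0.0068 and 0.15, with Trmt10c, a subunit of mitochondrial RNase P, at 0.45 and Lrpprc, which stabilizes mitochondrial messenger RNAs, at −0.18 in the pyruvate comparison at 15 mM glucose. The steps of translation itself were read in the same order. The 13 translation factors had medians of 0.0053, 0.033, 0.0013 and 0.087, and ranged at 15 mM glucose from −0.24 in Tsfm, an elongation factor, to 0.22 in Mtif3, an initiation factor. The 17 mitochondrial aminoacyl-tRNA synthetases had medians of 0.0050, 0.0039, −0.0069 and 0.016, all near the medians of all named genes, and 9 of 17 were above 0 at 15 mM glucose without minus with pyruvate.

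The 10 regulators of nuclear genes for mitochondria, among them Nrf1, Gabpa, Yy1 and the PGC-1 family, had medians of −0.0080, −0.026, −0.071 and −0.087. Ppargc1b was the lowest in both comparisons of [Glc 15 mM/Pyr (−)], with −0.20 and −0.34, and Yy1 the highest in the first of them, with 0.036. The ribosomal protein genes were also read by their promoter letters. In the glucose comparison without pyruvate the median was 0.18 for 37 genes with ETS letters and 0.18 for 30 genes with a window but no ETS letters, and it was 0.18 for 13 genes with and 0.18 for 54 without YY1 letters. For NRF1 letters it was 0.12 for 8 genes and 0.18 for 59 without. The 8 include Mrpl32 at the top, with 0.39, and Mrpl10 near the bottom, with 0.03. They also include Mrps18b, which was lowest for pyruvate at 15 mM glucose, with −0.24. The 8 genes also had the lower median for pyruvate at 15 mM glucose, 0.089 against 0.12, for glucose with pyruvate, 0.016 against 0.060, and for pyruvate at 5 mM glucose, −0.065 against −0.011, and these gaps were not tested.

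Larger machines that are also built from many nuclear genes shared some of these shifts. The 80 measured subunits of the respiratory chain and ATP synthase had medians of 0.020, 0.11, 0.13 and 0.20, and 68 of 80 were highest in [Glc 15 mM/Pyr (−)]. The 81 measured cytosolic ribosomal proteins had medians of 0.023, 0.043, 0.13 and 0.14, and 55 of 81 were highest there. In glucose without pyruvate 79 of 80 and 79 of 81 were above 0, beside 75 of 76 mitochondrial ribosomal protein genes. The mitochondrial ribosomal protein genes thus stood near the respiratory chain in the pyruvate comparison at 15 mM glucose, and below both groups, with 0.060, in the glucose comparison with pyruvate. None of these gaps was tested. With spike-in scaling every one of these lists had a median below 0 in both glucose comparisons and at 5 mM glucose, and at 15 mM glucose without minus with pyruvate the medians were 0.054 for the respiratory chain, 0.056 for ribosome assembly, 0.081 for mitochondrial transcription and −0.013 for the cytosolic ribosome. With cyclic loess the cytosolic ribosome was at 0.0070 there and the respiratory chain at 0.078.

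**Figure D5:**
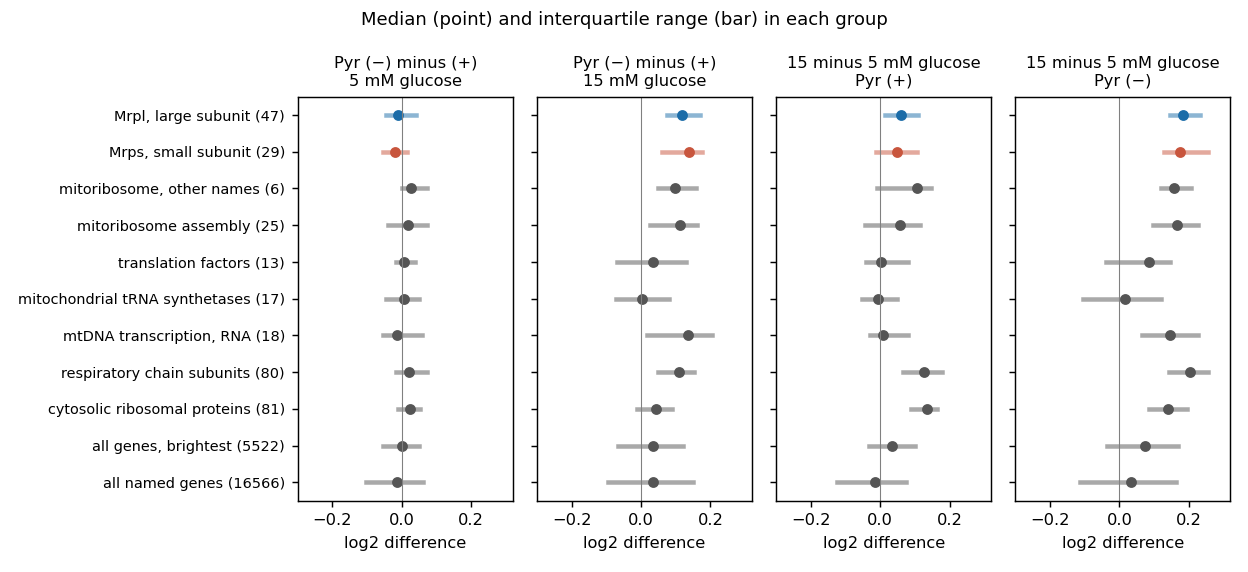
Median log2 difference (point) and interquartile range over the genes (bar) for the mitochondrial ribosomal protein genes of the large (47) and small (29) subunit and for 9 other groups, in the 4 comparisons, with the number of genes in brackets. In the pyruvate comparison at 15 mM glucose both subunits lie at 0.12 and 0.14, to the right of all named genes at 0.035; spike-in scaling shifts every group of a panel together and turns the sign of both subunits in the panels of glucose.

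The products of mitochondrial DNA, which this ribosome reads, are represented by 6 probes placed on chromosome M, whose names are transcript identifiers without a gene symbol. All 6 were well above background on the 4 arrays. All 6 were lower in [Glc 15 mM/Pyr (−)] than in [Glc 15 mM/Pyr (+)], with differences from −0.37 to −0.05, while 57.5% of all named genes were higher. The −0.37 came from the dimmest probe, at 953 to 1209 units. The others, from −0.11 to −0.053, were within the spread of 0.13 for single spots. In glucose without pyruvate 5 of 6 were below 0, from −0.19 to −0.014, and the remaining one was at 0.074. For pyruvate at 5 mM glucose 4 of 6 were below 0, with values from −0.28 to 0.11. For glucose with pyruvate 4 of 6 were below 0 as well, with values from −0.14 to 0.29. At 15 mM glucose their direction was opposite to that of the 71 of 76 nuclear genes for the ribosomal proteins, and it was below 0 for 6 of 6 also with spike-in scaling, quantile normalization, cyclic loess and both centrings.

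The label of the cells was checked on Schwann cell markers. S100b, Sox10, Ngfr, Gap43, Egr2 and Pmp22 were well above background on the 4 arrays, with over 1000 intensity units throughout, whereas Erbb3, L1cam and Gfap ranged from 7.28 to 130.2 units. Markers of other cells were not all dim. The fibroblast marker Col1a2 ranged from 85784 to 91960 units and the neuron marker Snap25 from 5470 to 9340. The other markers of both lists stayed under 1000 units. Of 6 fibroblast markers 5 were measured, with a median of −0.053 in the pyruvate comparison at 15 mM glucose, and of 6 neuron markers 4, with a median of 0.061. The 6 macrophage markers had a median of 0.063, in which Cd68 was 0.88 and Cd14 0.38 higher without pyruvate, while Aif1, Ptprc, Adgre1 and Csf1r had −0.22, −0.27, 0.09 and 0.03. The part of these in the shift of the ribosomal protein genes was not tested, and in bulk RNA a change in the kinds of cells cannot be told apart from a change within them.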

How the data were processed

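For each condition, total RNA of 1 sample was copied into cRNA labelled with the dye Cy3. This cRNA was hybridized to 1 of 4 Agilent Whole Mouse Genome arrays of 1 slide. The deposited intensity is the background-corrected processed signal of Feature Extraction 11.5.1.1. The deposited ratio equals that intensity divided by 1 factor per array, from 1718.5 to 1930.2; the settings behind it are not given in the sources used here. After removal of control spots and of spots marked as outliers, log2 intensities had the 75th percentile of their array subtracted, and spots of a probe were averaged. The study names GeneSpring GX without its settings. A gene was measured where a probe was well above background on all 4 arrays, and its value is the mean over such probes. All named genes are the 16566 measured genes whose name is in the RefSeq table (22587 of 31087 names matched). Probe positions are those of the files, on mm9. Python 3.11.15 and limma 3.58.1 in R 4.3.3 were used. Averaging over probes, the differences and the 1.2-fold limit were tried on simulated data, while scaling and filters were not.

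The members and gene lists were chosen with earlier results of these data known. Genes are named where they are among the 2 highest or 2 lowest of a subunit in a comparison, past 1.5-fold, not measured, or listed for their role. Mrpl46, Mrpl47, Mrpl43, Mrpl50, Mrpl57 and Mrps35, the probes on other chromosomes and the limit of 1000 intensity units were chosen after the values were seen. For the other lists the highest and lowest gene are named, and all members of the shortest list. Alternatives were another percentile base, the deposited ratio, normexp with an offset of 50, quantile and cyclic loess normalization, spike-in scaling, other filters, the brightest probe, genes on 1 chromosome and, chosen after seeing the data, centring on all named genes or on the 5522 brightest of them. Some markers on the Schwann cell list are not reported here.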

Additional observations from a re-analysis of the deposited data

Results flagged for a closer look

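4 results stood out because a contrast pointed in opposite directions under the 2 settings of the other factor. None of these differences was tested, since each condition is 1 array. The large subunit median in the pyruvate comparison was below 0 at 5 mM and above 0 at 15 mM glucose, and the 2 medians differed by 0.13. The median of all named genes had the same signs, −0.014 and 0.035, and relative to it the large subunit was at 0.0026 at 5 mM glucose, so that its sign there gives no direction. The small subunit medians did the same and differed by 0.16. Of single genes past the spread of 0.13 in both directions, Mrpl20 differed by 0.32 between the 2 pyruvate comparisons and, being the same sum over the 4 arrays, by 0.32 between the 2 glucose comparisons. The bright probe of Mrpl20 gave −0.00073 and 0.14 in the pyruvate comparisons, and the dim probe −0.32 and 0.18.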

How the results depend on the processing

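In all, 2158 values recomputed under the 14 alternatives that apply were put into classes. The class was same for 1951, moved past the limit for that kind of value for 199, and reversed for 8. Among the 1604 values of single genes, 107 were classed as moved or reversed. A gene value counted as reversed only where it was past 1.2-fold, so the classes do not count all changes of sign. More than 8 values changed sign. With spike-in scaling the genes above 0 fell from 58 to 0 for glucose with pyruvate and from 75 to 19 without it. Mrps18b was the gene whose value past 1.2-fold changed sign, to −0.12 in glucose with pyruvate under spike-in scaling. No paired analysis was possible because each condition has 1 array and no replicate numbers; for the same reason no array could be left out. Dropping names with a pseudogene suffix removed no gene.

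With spike-in scaling the median of all named genes was −0.23, −0.022, −0.42 and −0.21 in the 4 comparisons. The medians for pyruvate at 5 mM glucose were −0.22 (large subunit) and −0.23 (small), for pyruvate at 15 mM 0.063 and 0.081, for glucose with pyruvate −0.34 and −0.35, and for glucose without pyruvate −0.062 and −0.071. Genes above 0 numbered 0, 60, 0 and 19, those lower by 1.2-fold 20, 1, 64 and 1, those higher by 1.2-fold 1 at 15 mM glucose without minus with pyruvate and 0 in both glucose comparisons, and those highest in [Glc 15 mM/Pyr (−)] 0.

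For pyruvate at 15 mM the large subunit median was 0.10 with the percentile over well-measured probes and with the deposited ratio, 0.095 with loess, 0.092 with quantile normalization and 0.094 centred on the brightest genes; the small subunit median was 0.11 with loess, 0.098 with quantile and 0.11 centred on the brightest genes. 1 gene was higher by 1.2-fold with each of these and centred on all named genes, and 1 was lower with loess, without a filter, with the filter of at least 1 array, and centred on the brightest genes. For glucose without pyruvate the same settings, in that order, gave 0.16, 0.16, 0.11, 0.11 and 0.13 (large) and 0.15, 0.16, 0.10, 0.11 and 0.12 (small), with 6 genes higher by 1.2-fold under the other percentile, 3 with loess, 3 with quantile, 2 centred on the brightest genes and 17 centred on all named genes. For glucose with pyruvate the large subunit median was 0.019 with loess, 0.025 with quantile, 0.036 centred on the brightest genes and 0.089 centred on all named genes; the small subunit median was 0.00326 with loess, 0.0024 with quantile, 0.078 centred on all named genes and 0.079 with the brightest probe. Relative to all named genes the small subunit then changed sign, to −0.0064 with loess and −0.0062 with quantile. Genes higher by 1.2-fold were 0 with loess, quantile and centring on the brightest genes, 2 with the deposited ratio and normexp, and 3 centred on all named genes; 1 was lower without a filter and with the filter of at least 1 array. For pyruvate at 5 mM the brightest probe gave 0.0046 for the small subunit and −0.016 for the large minus the small; with either looser filter 1 gene, Mrpl21, was lower by 1.2-fold and by 1.5-fold. Why settings differ was not tested.

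Precision is limited by 1 array per condition, by a spread of 0.13 for single spots, and by dim second probes in Mrpl20, Mrpl39, Mrpl41 and Mrps25. Brighter probes could also disagree. Those of Mrpl49, with means of 12340 and 6596 intensity units, gave −0.017 and 0.26 for pyruvate at 15 mM glucose.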
